A study of Mus musculus with 5 samples.

Results

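The genes described are the small nucleolar RNA (snoRNA) and small Cajal body RNA (scaRNA) genes, taken as every gene whose symbol starts with Snord, Snora or Scarna and stands alone at a locus of the deposited expression tables. There were 36 of them among 21372 genes with a locus of their own, made up of 22 Snord, 6 Snora and 8 Scarna genes. A symbol with several loci was represented by that of the greatest average log2(FPKM + 1), so that 45 loci gave 36 genes. Another 53 loci joined a snoRNA or scaRNA symbol to other genes, in 50 of them to a gene of another kind, and were not used for the members.

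RNA came from 5 cultures of mouse embryonic fibroblasts of C57BL/6 background at passage 30, with 1 library each. MP cells overexpressed Meis1 and Prep1, M cells overexpressed Meis1, P cells overexpressed Prep1, and EV cells carried an empty vector. These 4 lines all derived from E14.5 embryos that were hypomorphic for Prep1, so the EV control carries the hypomorphic background too, and WT cells were wild type for Prep1. Meis1 and Prep1 (gene Pknox1) encode homeodomain transcription factors of the same family, and the design set their single and joint overexpression against the empty vector and against wild-type cells. Total RNA was sequenced. With 1 library per group, no difference below has a replicate check, and no p-value of its own is given.

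SnoRNAs are short, stable nuclear RNAs that base-pair with other RNAs and direct enzymes to a nucleotide. Those of the C/D class (Snord genes) carry a C box and a D box and guide 2′-O-methylation by fibrillarin, those of the H/ACA class (Snora genes) end in an ACA box and guide pseudouridylation by dyskerin, and scaRNAs (Scarna genes) hold boxes of either kind or both and act on spliceosomal RNAs in Cajal bodies. Most mammalian snoRNAs are not transcribed on their own. They are cut from introns of a host gene, often one that encodes a ribosomal protein or another part of the translation machinery. They have no poly(A) tail and are shorter than most sequenced fragments, so a standard RNA-seq library counts them poorly, and reads of an unspliced host intron can fall on the same bases.

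The sequences of C/D genes on which differences below turn, and of Snord104, the most evenly high of the class, are given from GENCODE M21 on GRCm38, 5′ to 3′, with T for U. Capitals mark the C box (TGATGA within the first 20 bases) and the D box (CTGA within the last 20 bases).
Snord37, chr10:81178950-81179013, plus strand: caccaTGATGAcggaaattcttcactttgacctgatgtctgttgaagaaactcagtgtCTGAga
Snord4a, chr11:78181686-78181756, minus strand: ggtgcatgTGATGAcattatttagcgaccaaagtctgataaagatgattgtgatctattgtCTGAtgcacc
Snord66, chr16:20684239-20684313, plus strand: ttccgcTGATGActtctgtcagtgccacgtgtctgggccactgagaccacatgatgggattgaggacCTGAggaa
Snord12, chr2:167065276-167065365, plus strand: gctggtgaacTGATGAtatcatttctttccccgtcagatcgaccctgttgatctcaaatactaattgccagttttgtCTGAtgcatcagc
Snord104, chr11:106500993-106501062, plus strand: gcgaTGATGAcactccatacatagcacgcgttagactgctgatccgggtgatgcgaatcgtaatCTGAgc

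Of the H/ACA class, Snora30, the highest, and Snora78, whose host gene is itself lowest in MP, are shown with ACA in capitals where it stands 3 bases before the 3′ end.
Snora30, chr7:127527874-127528003, plus strand: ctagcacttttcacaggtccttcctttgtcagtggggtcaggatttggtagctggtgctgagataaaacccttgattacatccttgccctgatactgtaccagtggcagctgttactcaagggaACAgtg
Snora78, chr17:24719676-24719803, minus strand: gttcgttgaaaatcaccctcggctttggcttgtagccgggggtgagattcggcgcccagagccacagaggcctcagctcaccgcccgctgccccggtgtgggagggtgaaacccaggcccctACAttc
Scarna10 is shown because it had the widest swings of the scaRNAs. Of its 325 bases the first and last 100 are given, with the C box and the D box again in capitals.
Scarna10, first 100 bases, chr6:125186584-125186683, minus strand: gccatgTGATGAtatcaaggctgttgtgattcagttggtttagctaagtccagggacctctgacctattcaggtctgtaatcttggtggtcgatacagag
Scarna10, last 100 bases, chr6:125186359-125186458, minus strand: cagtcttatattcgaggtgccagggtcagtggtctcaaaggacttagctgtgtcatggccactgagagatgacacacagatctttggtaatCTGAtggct

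Both boxes, spelled as above, were found in 14 of the 21 Snord members with a sequence (66.7%), close to the 68.7% of all 99 GENCODE Snord genes and against 0.0454% of 2202 microRNA hairpins. ACA stood 3 bases from the end in all 6 Snora members, against 83.3% of 42 GENCODE Snora genes and 3.27% of the hairpins. Of the 8 Scarna members, 4 held the C and D boxes and 2 ended in ACA. Only the strand of the gene was searched, and a member without a match lacks these letters in these windows and nothing more.

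Levels are given as scaled FPKM. FPKM relates fragments to the length of the transcript and to the number of fragments mapped, which puts genes of different length on 1 scale. That scale is least sure for genes as short as these, since few positions of a fragment fit within them and small differences in the assumed fragment length change the value much, so the order of levels between members is a description only. The deposited values differed in overall size, with upper quartiles of 10.1 FPKM in MP, 448 in M, 12.0 in P, 165 in EV and 12.5 in WT, and each library was therefore scaled to an upper quartile of 10. The read depth is unknown, since the files hold no counts. Pknox1 stood at 0.542 scaled units in the library labelled MP, 3.11 in M, 0.534 in the library labelled P, 2.06 in EV and 10.7 in WT. The libraries labelled as overexpressing Prep1 thus had its lowest levels, against their labels. Meis1 stood at 14.7 in the library labelled MP, 16.1 in M, 8.55 in the library labelled P, 7.91 in EV and 12.0 in WT. The 7 of 8 fibroblast markers found were at 1 scaled unit or more in every library, with sums of 77.7 to 92.5. Of 18 markers of epithelium, endothelium, blood, muscle and nerve, 16 were found, and only Tubb3 and Map2, both nerve markers, and Krt8 in P reached 1 unit. Olfactory and vomeronasal receptor genes, which fibroblasts do not use, were above 0 in 12.7% of 1422 genes in MP, 70% in M, 10.9% in P, 99.9% in EV and 17.1% in WT, at a median of 0.183 scaled units in M and 0.268 in EV. The part of this low, broad signal in the values of M and EV below was not tested.

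Fewest snoRNA and scaRNA genes were listed above 0 in the library labelled MP: 23 of 36 (63.9%) there, 31 in M (86.1%), 27 in P (75%), 28 in EV (77.8%) and 28 in WT (77.8%). Over all genes the shares were 72.5% in MP, 90.6% in M, 75.4% in P, 97.8% in EV and 78% in WT, so MP was the lowest library there too. The Snord genes differed most between libraries, with 12 of 22 above 0 in MP, 19 in M, 16 in P, 16 in EV and 17 in WT. Of the 6 Snora genes, 4 were above 0 in MP, 5 in M, 4 in P, 5 in EV and 4 in WT. The same 7 of 8 Scarna genes were above 0 in every library. A value of 0 may be a failed estimate, and it is given here only as listed at 0.

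**Figure D1:**
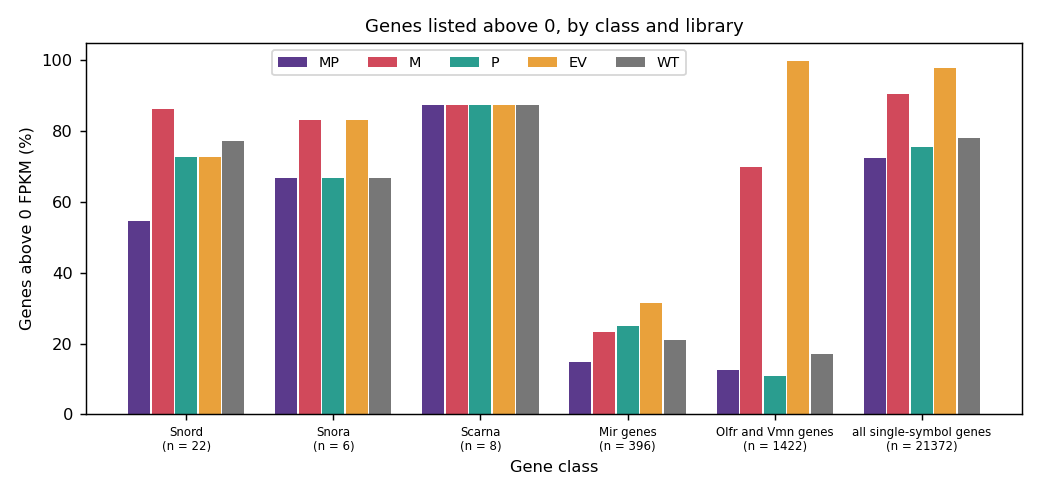
Percentage of genes above 0 FPKM (vertical axis) in the libraries labelled MP, M, P, EV and WT, 1 bar per library, for the 3 snoRNA and scaRNA classes, microRNA genes, receptor genes and all genes with a locus of their own. Snord genes range from 54.5% in MP to 86.4% in M, the Scarna bars are level at 87.5%, and receptor genes stand out in M and EV.

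The list of libraries in which a member was above 0 held 22 genes that were above 0 in all 5, among them 11 Snord, 4 Snora and 7 Scarna genes. At the other end, Snord42a, Snord68, Snora35 and Scarna9 were listed at 0 in every library. Snora35 lies in an intron of the serotonin receptor gene Htr2c and is known in mouse as a brain snoRNA, and Htr2c itself stood between 0.0273 scaled units in MP and 0.252 in EV. Snord42a and Snord68 lie in the ribosomal protein genes Rpl23a and Rpl13, which had levels of 12.3 to 26.2 and 7.25 to 10.8. Snord37 and Snord4a were above 0 in every library but MP, Snord111 in every library but P, and Snord38a in M, EV and WT. Snord61 was above 0 in M, P and WT, Snord85 in M and WT, Snord90 in M and P, Snord19 in P alone, and Snora19 and Snord116 in M and EV.

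**Figure D2:**
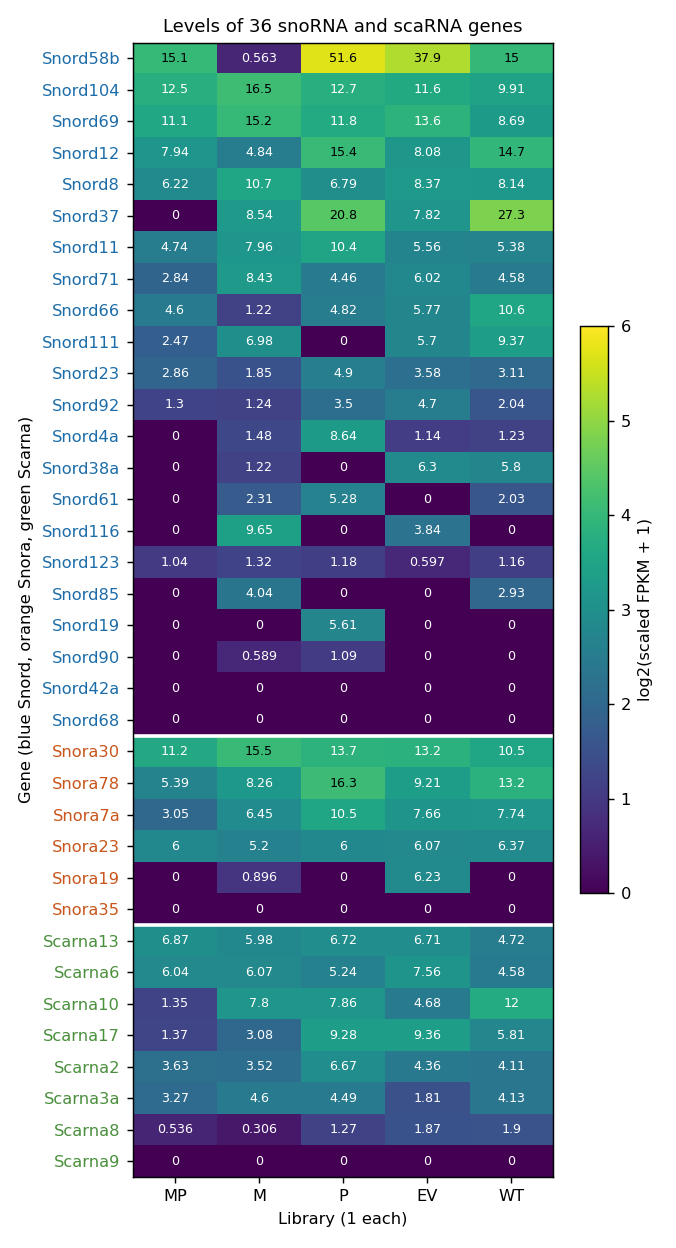
Scaled FPKM of the 36 genes (rows, by class) in the libraries labelled MP, M, P, EV and WT (columns, 1 library each), printed in each cell and coloured as log2(scaled FPKM + 1). Snord58b in P, at 51.6, is the highest cell, and the dark cells at 0 are most numerous in MP.

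The median level was also lowest in the library labelled MP, where more members were at 0. The median over all 36 genes, zeros included, was 1.92 scaled units in MP, 3.78 in M, 5.26 in P, 5.63 in EV and 4.58 in WT. Snord medians were 1.17 in MP, 2.08 in M, 4.86 in P, 5.13 in EV and 3.84 in WT. Snora medians were 4.22 in MP, 5.83 in M, 8.23 in P, 6.94 in EV and 7.06 in WT. Scarna medians were 2.32 in MP, 4.06 in M, 5.96 in P, 4.52 in EV and 4.35 in WT. By these medians MP was lowest in each of the 3 classes, and P was highest in Snora and Scarna genes. Over the genes above 0 in a library alone, the Snord median was 4.67 in MP, 4.04 in M, 6.20 in P, 5.89 in EV and 5.80 in WT, so M and not MP was lowest there. With libraries scaled to their medians, MP was still lowest over all members and in the Snord class, but the Snora median was 5.66 in MP and 4.95 in WT, and the Scarna median 3.11 in MP and 3.05 in WT. Among the 22 genes above 0 in all 5 libraries, MP held the lowest value for 7 genes and the highest for 1, M the lowest for 8 and the highest for 7, P the lowest for 0 and the highest for 7, EV the lowest for 2 and the highest for 3, and WT the lowest for 5 and the highest for 4. Over the 11553 genes of the whole table that were above 0 in all 5 and reached 1 scaled unit in one of them, MP was lowest for 21.3% and highest for 14.6%, M lowest for 13.3% and highest for 16.6%, and P lowest for 11.4% and highest for 12%. EV was lowest for 13.7% of these genes and highest for 24.5%. WT was lowest for 40.3% and highest for 32.2%, so WT and not MP was most often lowest there.

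Individual members ranged widely between libraries. The highest level divided by the lowest had a median of 2.59 over these 22 members, against 1.39 over the 11553 genes. It was 2.50 over 48 other genes shorter than 200 bases. By class the median was 2.65 for Snord, 2.25 for Snora and 2.53 for Scarna genes.

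Among the C/D genes, Snord104 and Snord69 were high in every library. Snord104, whose human counterpart guides methylation of the large-subunit rRNA, stood at 12.5 scaled units in MP, 16.5 in M, 12.7 in P, 11.6 in EV and 9.91 in WT. Snord69, in the nucleostemin gene Gnl3, stood at 11.1 in MP, 15.2 in M, 11.8 in P, 13.6 in EV and 8.69 in WT. Neither differed by 2-fold in any pair of libraries compared below. Snord8 (6.22 in MP, 10.7 in M, 6.79 in P, 8.37 in EV and 8.14 in WT), which in human guides a methylation of the U6 spliceosomal RNA, had a 1.73-fold range. Snord12, in the noncoding gene Zfas1, stood at 7.94 in MP, 4.84 in M, 15.4 in P, 8.08 in EV and 14.7 in WT, high in P and WT and low in M.

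Snord58b had the highest C/D level on average over the libraries and the widest range of members above 0 in all 5. It stood at 15.1 in MP, 0.563 in M, 51.6 in P, 37.9 in EV and 14.98 in WT, a 91.6-fold range, and was the lowest Snord gene above 0 in M. Its symbol also occurs in a joined locus with its host Rpl17, so how the authors' counting split reads between the copies is uncertain. Snord37, in the gene of elongation factor Eef2, was listed at 0 in MP and stood at 8.54 in M, 20.8 in P, 7.82 in EV and 27.3 in WT. P and WT were high and M and EV alike. Snord4a, in Rpl23a, was listed at 0 in MP and stood at 1.48 in M, 8.64 in P, 1.14 in EV and 1.23 in WT, so that P stood apart from the rest. Snord38a was at 0 in MP and P, at 1.22 in M, 6.30 in EV and 5.80 in WT. Snord66, in the initiation factor gene Eif4g1, stood at 4.60 in MP, 1.22 in M, 4.82 in P, 5.77 in EV and 10.6 in WT, lowest in M and highest in WT.

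Other C/D genes differed in which library was lowest. Snord71, in the adaptor gene Ap1g1, stood at 2.84 in MP, 8.43 in M, 4.46 in P, 6.02 in EV and 4.58 in WT, and Snord11, in the C/D core protein gene Nop58, at 4.74 in MP, 7.96 in M, 10.4 in P, 5.56 in EV and 5.38 in WT. Snord111, in the splicing factor gene Sf3b3, stood at 2.47 in MP, 6.98 in M, 0 in P, 5.70 in EV and 9.37 in WT. Snord92, in Wdr43, stood at 1.303 in MP, 1.24 in M, 3.50 in P, 4.70 in EV and 2.04 in WT. MP was lowest for Snord71 and Snord11, M for Snord92 and P for Snord111. Snord23 lay between 1.85 in M and 4.90 in P, and Snord123 was near 1 throughout, with a 2.22-fold range.

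Of the H/ACA genes, Snora30 had 11.2 scaled units in MP, 15.5 in M, 13.7 in P, 13.2 in EV and 10.5 in WT, and Snora23, in the importin gene Ipo7, ran only between 5.204 in M and 6.37 in WT. Snora23 was the steadiest member above 0 in all 5 libraries, with a 1.22-fold range. It had the status FAIL (a failed computation) in all 4 of the authors' deposited tables. Snora78, in the noncoding host gene Snhg9, stood at 5.39 in MP, 8.26 in M, 16.3 in P, 9.21 in EV and 13.2 in WT. Snora7a, in Rpl32, stood at 3.05 in MP, 6.45 in M, 10.5 in P, 7.66 in EV and 7.74 in WT. Both were lowest in MP and highest in P. Snora19, in the initiation factor gene Eif3a, was at 0.896 in M and 6.23 in EV and at 0 in the other 3 libraries.

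The scaRNA genes were the class most regularly detected. Scarna10, which in human (as U85) guides both kinds of modification in the U5 spliceosomal RNA, stood at 1.35 in MP, 7.80 in M, 7.86 in P, 4.68 in EV and 12.0 in WT. Scarna17 stood at 1.37 in MP, 3.08 in M, 9.28 in P, 9.36 in EV and 5.81 in WT. Both were lowest in MP. Scarna8 was low throughout, at 0.536 in MP, 0.306 in M, 1.27 in P, 1.87 in EV and 1.90 in WT. Scarna13, in the noncoding gene Snhg10, was nearly level, at 6.87 in MP, 5.98 in M, 6.72 in P, 6.71 in EV and 4.72 in WT. Scarna6, in the autophagy gene Atg16l1, ran up to 7.56 in EV and down to 4.58 in WT, and Scarna2, which lies outside any longer gene on its strand, ran between 3.52 in M and 6.67 in P. Scarna3a stood at 3.27 in MP, 4.60 in M, 4.49 in P, 1.81 in EV and 4.13 in WT, lowest in EV.

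Libraries were then compared in 6 pairs, as log2 ratios of scaled FPKM + 1. A gene entered when it was above 0 in both libraries and reached 1 scaled unit in one of them, and was called 2-fold apart at a log2 ratio of 1 or more in size. Genes listed at 0 in one library and at 1 unit or more in the other were counted apart, with no fold. The pseudocount understates the difference of low genes.

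By the labels, MP over M asks what Prep1 overexpression adds to that of Meis1, though Pknox1 was lower in the library labelled MP than in M. Of 22 members that entered, 2 were 2-fold higher and 3 were 2-fold lower in the library labelled MP, where 0.187% and 0.374% of 10707 genes were (0.56% in either direction). Snord58b (log2 ratio 3.37) and Snord66 (1.33) were higher, and Scarna10 (-1.90), Snord71 (-1.30) and Snord111 (-1.20) were lower. All 3 lower members had the status FAIL in the authors' deposited table of M, and with status OK in the tables used, 8 members entered, of which 2 were higher and 0 lower. The median over the members was -0.38, against -0.02 over all genes, and 14 of 22 lay below 0. Another 6 Snord genes, Snord37, Snord116, Snord38a, Snord4a, Snord61 and Snord85, were listed at 0 in MP and at 1 unit or more in M, as 0.806% of genes were. They were 6 of the 28 members that reached 1 unit in this pair, beside 10 of 53 other genes shorter than 200 bases. No member was at 0 in M and at 1 or more in MP, where the share of all genes was 0.0185%.

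By the labels, MP over P asks what Meis1 overexpression adds to that of Prep1, and here most members lay below 0. None of 22 was 2-fold higher and 5 were 2-fold lower in the library labelled MP, against 0.187% and 0.598% of 10704 genes (0.785% in either direction). The 5 were Scarna17 (log2 ratio -2.12), Scarna10 (-1.91), Snord58b (-1.71), Snora7a (-1.50) and Snora78 (-1.44). The median was -0.54 over the members and 0.02 over all genes, and 19 of 22 lay below 0. All 11 Snord genes that entered lay below 0, with log2 ratios of -1.71 to -0.03. Listed at 0 in MP and at 1 unit or more in P were Snord19, Snord37, Snord4a, Snord61 and Snord90, 5 members where 0.168% of genes were, and Snord111 was the reverse, as 0.028% of genes were. The 5 were of 28 members that reached 1 unit, beside 13 of 52 other genes shorter than 200 bases. Both Pknox1 values go against the labels of this pair.

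Against the empty vector, MP again had lower members. None of 23 was 2-fold higher and 5 were 2-fold lower in the library labelled MP, against 0.211% and 1.29% of 10889 genes (1.51% in either direction). They were Scarna17 (log2 ratio -2.13), Snord92 (-1.31), Snord58b (-1.27), Scarna10 (-1.27) and Snora7a (-1.10). Snord92, which stays under 5 scaled units in this pair, was named after its values were seen. It had the status FAIL in the authors' deposited table of MP, and with status OK alone 19 members entered, of which 4 were lower. The median was -0.28 over the members, against -0.03 over all genes, and 19 of 23 lay below 0. With libraries scaled to their medians instead, the members' median was 0.12 and that of all genes 0.39. With WT in place of EV, 6 members were 2-fold lower in MP and none was higher, but Snord58b was then level, with a log2 ratio of 0.01. The share of all genes 2-fold apart between MP and WT was not computed. Between EV and WT it was 9.03%. Snora19, Snord116, Snord37, Snord38a and Snord4a were at 0 in MP and at 1 unit or more in EV, 5 members where 0.493% of genes were, and no member was the reverse (0% of genes). The 5 were of 28 members that reached 1 unit, beside 20 of 63 other genes shorter than 200 bases.

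By the labels, M over EV sets cells overexpressing Meis1 alone against the vector. Of 28 members that entered, 1 was 2-fold higher and 7 were 2-fold lower in M, against 0.236% and 0.436% of 11016 genes (0.672% in either direction). The lower members were Snord58b (log2 ratio -4.64), Snora19 (-1.93), Snord38a (-1.72), Snord66 (-1.61), Snord92 (-1.35), Scarna17 (-1.35) and Scarna8 (-1.13). Snord92 was again named after its values were seen, and it had the status FAIL in the authors' deposited table of M. With status OK alone, 12 members entered, of which 1 was higher and 6 were lower. The single higher member was Snord116 (1.14 at the locus used). With the loci of each symbol summed, its log2 ratio was 0.18 and no member was 2-fold higher. The median was -0.14 over the members and -0.01 over all genes, and 13 of 28 lay above 0. Snord61 and Snord85 were at 0 in EV and at 1 unit or more in M, as 0.0634% of genes were, and no member was the reverse, as 0.145% of genes were. With WT as the comparison, 6 members were 2-fold lower in M and none was higher. The share of all genes 2-fold apart between M and WT was not computed either, and between EV and WT it was 9.03%.

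P over EV sets the library labelled as overexpressing Prep1 alone, in which Pknox1 was lower than in EV, against the vector. Of 24 members 2 were 2-fold higher and none was 2-fold lower in the library labelled P, against 0.563% and 1.2% of 11008 genes (1.76% in either direction). Snord4a (log2 ratio 2.17) and Snord37 (1.31) were the higher members in the library labelled P, and Snord37 was not higher there than in WT, with a log2 ratio of -0.38. Snord4a had the status FAIL in the authors' deposited tables, and with status OK alone 1 member was higher. The median was 0.25 over the members and -0.03 over all genes, and 15 of 24 lay above 0. Snora19, Snord111, Snord116 and Snord38a were at 0 in P and at 1 unit or more in EV, where 0.452% of genes were, and Snord19, Snord61 and Snord90 were the reverse, where 0.0994% of genes were.

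EV over WT sets the hypomorphic cells with the vector against wild-type cells. Of 26 members, 1 was 2-fold higher and 2 were 2-fold lower in EV, against 2.63% and 6.4% of 11513 genes (9.03% in either direction), so the members' share was near the background. Snord58b was higher (log2 ratio 1.28), and Snord37 (-1.68) and Scarna10 (-1.19) were lower. With libraries scaled to their medians, 3 members were 2-fold higher and 1 was lower. The median was 0.04 over both the members and all genes, and 14 of 26 lay above 0. Snora19 and Snord116 were at 0 in WT and at 1 unit or more in EV, where 0.389% of genes were, and Snord61 and Snord85 were the reverse, where 0.0692% of genes were. M, P and MP are set against the same EV library, so a value that is high or low in EV enters 4 of the 6 pairs.

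**Figure D3:**
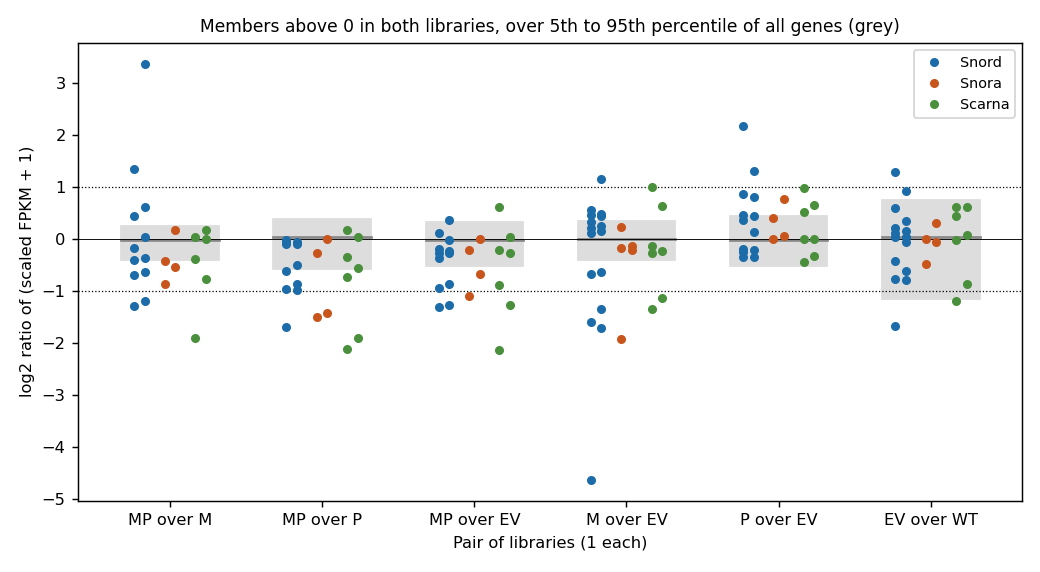
Log2 ratio of (scaled FPKM + 1) for each member above 0 in both libraries of a pair, by class, over the range from the 5th to the 95th percentile of all genes (grey, with their median as a dark line). In MP over P nearly all points lie at or below 0, and the lowest point, at -4.64 in M over EV, is Snord58b.

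Snord116 is the repeated C/D snoRNA of the imprinted locus lost in human Prader-Willi syndrome, best known in neurons, and it alone had several loci here. Of its 10 loci, 7 were above 0 in M, at up to 9.65 scaled units, and all 10 in EV, at 2.06 to 4.60. None was above 0 in MP, P or WT. In M, 3 loci held the same value, 6.17, so the loci are not separate measurements, and summed over all 10 the log2 ratio of M over EV was 0.18, against 1.14 at the locus used. M and EV are also the libraries in which receptor genes were widely above 0, and the part of that signal in Snord116 was not tested.

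Short members were at 0 more often than longer ones. The 35 members with a GENCODE gene were 64 to 111 bases long in the Snord class, 128 to 184 in the Snora class and 70 to 414 in the Scarna class. Of 20 members under 100 bases, 10 were at 0 in at least 1 library, and of 15 longer ones, 3 were. Over the whole table, 333 genes under 100 bases were at 0 in 83.2% of cases in MP, 73.6% in M, 73.3% in P, 68.5% in EV and 76% in WT, whereas 13564 genes of 2000 bases or more were at 0 in 18.2% in MP, 3.91% in M, 16.6% in P, 0.243% in EV and 14.2% in WT. In MP over M, 21.6% of 37 genes under 100 bases that entered were 2-fold apart, and 0.433% of 8078 genes of 2000 bases or more. In EV over WT the shares were closer, 11.8% of 51 and 8.59% of 8590. The 333 genes under 100 bases include the 20 members of that length, so these shares are not independent of the members.

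Outside the members, 392 other genes shorter than 200 bases give the nearest comparison for the pairs. They include microRNA genes, which are also described on their own below, so those sets overlap. Short length and microRNA class were not separated. Of those that entered, 11.9% were 2-fold apart in MP over M, 5.41% in MP over P, 6.98% in MP over EV, 9.26% in M over EV, 12% in P over EV and 7.02% in EV over WT. Their median log2 ratio was -0.26 in MP over M, -0.21 in MP over P and -0.11 in MP over EV, on the members' side of 0. It was 0.10 in M over EV and -0.01 in EV over WT, on the other side, and 0.09 in P over EV, on the same side. They were above 0 less widely than the members, in 16.6% of cases in MP, 25.5% in M, 26.5% in P, 32.9% in EV and 22.4% in WT. Of those that reached 1 unit, 13 of 70 were at 0 in M and 3 at 0 in EV in the pair M over EV, 16 of 74 at 0 in P and 8 at 0 in EV in P over EV, and 5 of 76 at 0 in EV and 14 at 0 in WT in EV over WT. The members' counts are therefore read against short genes and not against the table as a whole.

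**Figure D4:**
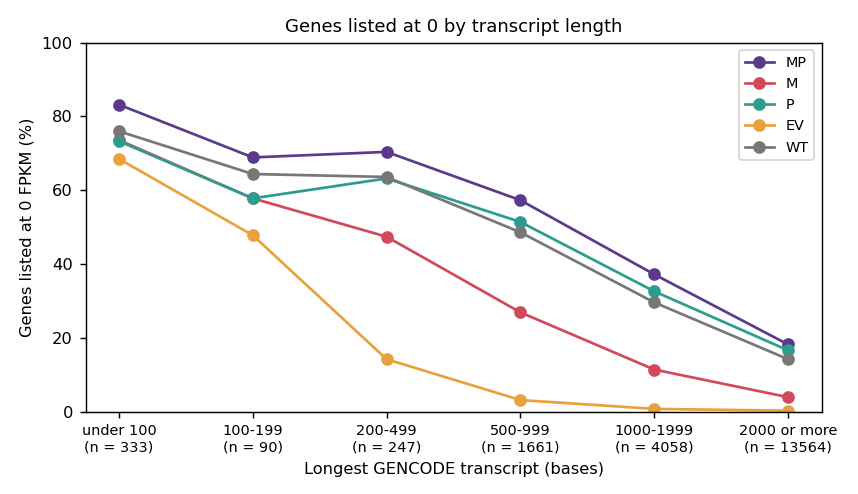
Percentage of genes listed at 0 FPKM (vertical axis) by the length of the longest GENCODE transcript (horizontal axis, in bases), 1 line each for the libraries labelled MP, M, P, EV and WT. Every line is far lower at 2000 bases or more (0.243% to 18.2%) than under 100 bases (68.5% to 83.2%), though those of MP and P rise slightly on the way.

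Cuffdiff writes FAIL where its computation broke down, and in the authors' deposited table of MP it stood for 9 of 36 members (25%, against 13.9% of all genes), in that of M for 21 (58.3%, against 34.5%), in that of P for 9 (25%, against 13.7%) and in that of WT for 9 (25%, against 13.6%). The same 9 genes failed in all 4 tables: Scarna6, Scarna9, Snora23, Snord111, Snord42a, Snord4a, Snord68, Snord85 and Snord92. By the authors' deposited tables, members called significant against EV numbered 11 in MP (30.6%, against 40.3% of all genes), none in M (0%, against 4.64%), 8 in P (22.2%, against 42.3%) and 9 in WT (25%, against 43.7%), and each was below EV. These calls rest on unscaled FPKM, in which EV as a whole was higher than MP, P and WT.

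Host genes varied less than the members inside them, by the measure of range used above. Of 35 members placed in GENCODE, 32 lay within a longer gene on the same strand, 23 of them in introns only and 9 overlapping an exon. The other 3, Scarna17, Scarna2 and Snord104, lay in none. A host locus was found for 31 members, 8 of them a joined locus, and all 29 different hosts were above 0 in all 5 libraries. Over the 28 hosts that reached 1 scaled unit, which leaves out Htr2c, the ratio of highest to lowest level had a median of 1.46, lower than the 2.59 over members. The same median was 1.39 over all genes and 2.50 over other genes shorter than 200 bases. Hosts are longer than the members inside them, and the part of gene length in this contrast was not tested.

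Pair by pair, more members than hosts were 2-fold apart. In MP over M, 5 of 18 members were 2-fold apart and none of their hosts was, and 9 of 18 pairs lay on the same side of 0. In MP over P, 4 of 18 members and 1 host were 2-fold apart, with 8 on the same side. In MP over EV the figures were 4 of 19 members, 1 host and 11 on the same side, and in M over EV 6 of 23 members, no host and 12 on the same side. In P over EV they were 2 of 20 members, no host and 14 on the same side, and in EV over WT 3 of 22 members, no host and 13 on the same side.

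Named cases show the contrast. Eef2, host of Snord37, stood at 6.46 scaled units in MP, 8.78 in M, 10.8 in P, 8.91 in EV and 8.49 in WT, with no library at 0. Ncapd2, host of Scarna10, stood at 14.1 in MP, 14.1 in M, 11.9 in P, 16.2 in EV and 10.6 in WT, so its log2 ratio of MP over M was -0.0019 where that of Scarna10 was -1.90. Eif4g1, host of Snord66, stood in a locus joined with Fam131a, at 13.3 in MP, 12.4 in M, 11.3 in P, 16.5 in EV and 11.5 in WT. The noncoding gene Snhg9 is the host of Snora78. It stood at 0.240 in MP, 1.36 in M, 1.88 in P, 2.25 in EV and 2.83 in WT, and its log2 ratio was -1.21 in MP over P and -1.39 in MP over EV, where that of Snora78 was -1.44 and -0.68. In P over EV the host's was -0.18 and that of Snora78 0.76, on opposite sides of 0.

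**Figure D5:**
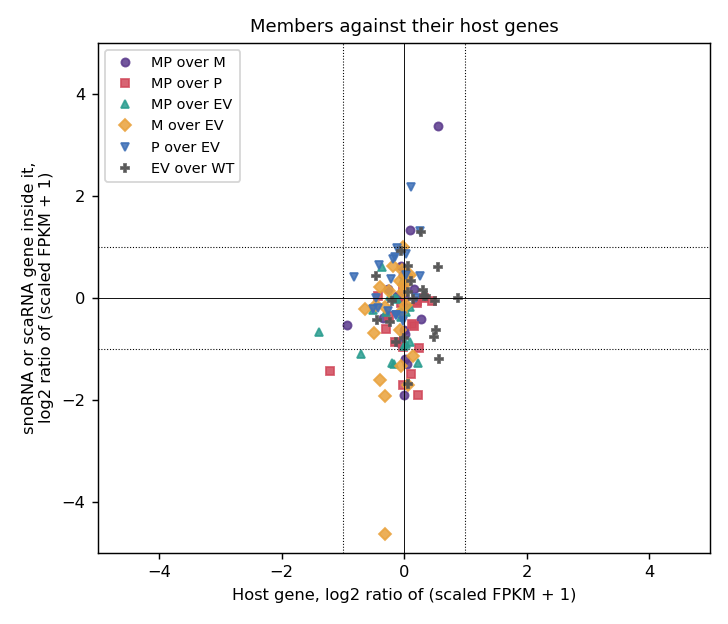
Log2 ratio of (scaled FPKM + 1) of each member (vertical axis) against that of its host gene (horizontal axis) in the 6 pairs, marked by colour and shape. Points spread vertically from -4.64 to 3.37 and stay within 1 of 0 horizontally, except 2 points of Snora78 and Snhg9 at -1.21 and -1.39.

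The 53 joined loci, which hold 75 snoRNA and scaRNA symbols, had none of the members' zeros. All were above 0 in all 5 libraries, with median levels of 17.3 in MP, 16.2 in M, 16.9 in P, 18.5 in EV and 15.3 in WT. Between 0 and 2 of them were 2-fold apart in each pair. The snoRNA's share of such a value cannot be told apart from that of the other gene.

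The genes found of the snoRNA protein machinery differed by less than 2-fold. Of 6 listed symbols of C/D snoRNA proteins 2 were found, Nhp2l1, a box-binding protein, and Rrp9. Fbl (fibrillarin), Nop56 and Nop58 were not among those found, so they were not compared. Of the H/ACA proteins 4 of 6 were found, among them Dkc1, the pseudouridine synthase, and Naf1, an assembly factor. All 16 genes of Cajal body and snoRNP assembly were found, such as Coil, the coilin scaffold, and the helicases Ruvbl1 and Ruvbl2, and 20 of 22 of nucleolar rRNA processing. No gene of these 4 lists was 2-fold apart in any of the 6 pairs. The list of assembly genes had median log2 ratios of -0.01 in MP over M, 0.12 in MP over P, -0.07 in MP over EV, -0.11 in M over EV, -0.08 in P over EV and 0.26 in EV over WT. Dkc1 stood at 16.1 in MP, 14.8 in M, 13.3 in P, 16.1 in EV and 12.2 in WT, and Coil was highest at 10.4 in EV and lowest at 8.65 in WT.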

How the data were processed

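Total RNA of 5 fibroblast cultures was sequenced on an Illumina platform after extraction with a Qiagen kit, per the labels' protocols, and groups follow the sample labels. The authors deposited 4 tables of 61082 loci, each setting EV against 1 other library, made with TopHat, Cufflinks and Cuffdiff on mm9, per the submitters' processing notes. Tool versions, the gene annotation and any use of strand are not given in the sources used here. The locus values were taken as the authors' FPKM, from the Cuffdiff column layout of the file headers and these notes. Each deposited p-value and q-value comes from the authors' test between single libraries, and their significance call was counted but not used.

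Loci with 1 symbol were kept (22894, giving 21372 genes), with EV taken from the table of M. Each library was scaled to an upper quartile of 10 over the genes that reach 1 FPKM in at least one library. Ratios used a pseudocount of 1. The columns used hold no locus coordinates, so, other than planned, lengths and host genes came from GENCODE M21 (GRCm38), by symbol and strand; 35 of 36 members and 93.4% of all genes matched. Scaling and ratios were tested on simulated data. Genes named are, per pair, the 6 highest and 6 lowest members at 5 scaled units or more, the 5 highest per class, every Scarna gene, Snord116, hosts, and list genes with the largest differences, shown where they carry a comparison. Members, lists and comparisons were chosen with earlier results of these data known. Depth is unknown, so no interval is given. Alternatives were pseudocount, minimum, scaling, loci per symbol, test status and, chosen after seeing the data, WT in place of EV and the upper quartile over all loci. Python 3.11.15, pandas 2.3.3 and numpy 2.4.6 were used. One host gene is not reported here.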

Additional observations from a re-analysis of the deposited data

Results flagged for a closer look

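Scarna10 differed in the direction of its ratios between contrasts of the same factor. Its log2 ratio was -1.90 in MP over M and 0.64 in P over EV, both of which set cells labelled as overexpressing Prep1 against cells that are not. It was -1.91 in MP over P and 0.63 in M over EV, both of which set Meis1 overexpression against none. With WT in place of EV the ratios of P and M were -0.55 and -0.56, so the opposite sign was seen with EV as the reference and not with WT. WT cells also differ from EV in Prep1 genotype, and Scarna10 was highest in WT, at 12.0. Scarna10 had the status FAIL in the authors' deposited table of M. The source of the change in sign was not tested. Snord66 had a log2 ratio of 1.33 in MP over M and -0.22 in P over EV. With 1 library per group none of these differences was tested.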

How the results depend on the processing

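Of the main counts and medians, 72 values under the alternatives kept within 1.5 times of the reported count or within a 2-fold of the reported ratio, and 17 moved. Median log2 ratios near 0 can change sign within that bound. That of MP over EV went from -0.28 to 0.12 with scaling to the median and is still among the 72. The 72 therefore does not show that the medians kept their direction. With deposited values unscaled, 22 members were 2-fold apart in MP over M, 23 in MP over EV, 22 in M over EV (19 higher and 3 lower), 23 in P over EV and 26 in EV over WT, with medians of -5.54, -4.11, 1.27, -3.58 and 3.74, since the libraries differ in overall size. With a pseudocount of 0.1, 8 were apart in MP over P, 8 in MP over EV and 5 in EV over WT. In MP over EV, 3 were apart at 5 scaled units or more and 2 with scaling to the median. With members of status OK only, 2 were apart in MP over M, both higher, and 1 in P over EV. Before the pseudocount is added, scaling to the median moved the log2 ratios by 0.35 in MP over M, 0.37 in MP over P and 0.47 in MP over EV. The shift was 0.12 in M over EV, 0.11 in P over EV and 0.46 in EV over WT. Ratios with the pseudocount moved by less. Member medians were then -0.07, -0.28, 0.12, -0.03, 0.34 and 0.43 in that order of pairs, against 0.30, 0.35, 0.39, 0.10, 0.06 and 0.45 over all genes.

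Among the ranked members that were 2-fold apart, unscaled values turned the direction of Snord58b in MP over M (-0.65) and Snord4a in P over EV (-0.94). They also turned Snord37 in P over EV (-2.46) and in EV over WT (2.05) and Scarna10 in EV over WT (2.45). Smaller ratios turned as well, such as that of Snord12 in MP over M (0.61 to -4.55) and in EV over WT (-0.79 to 3.01), so this list is not complete. With WT in place of EV, Snord58b stood at 0.0122 in MP and Snord37 at -0.38 in P. Except where the libraries' overall size accounts for a value by construction, the cause was not tested. No paired analysis was possible because the labels give 1 library per group and no replicate numbers, and no replicate could be left out. Unknown depth and short length limit every value.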

Other observations

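Of 9 listed small noncoding RNAs that are not snoRNAs, 6 were found, and some were low in the library labelled MP. Their median log2 ratio was -0.24 in MP over M, -0.52 in MP over P and -0.37 in MP over EV. Rpph1, the RNA of ribonuclease P, stood at 5.45 scaled units in MP, 7.50 in M, 13.4 in P, 12.1 in EV and 11.3 in WT, and its log2 ratio was -1.15 in MP over P and -1.03 in MP over EV. Rmrp, the RNA of the related mitochondrial RNA-processing enzyme, stood at 4.93 in MP, 5.88 in M, 11.1 in P, 8.51 in EV and 8.34 in WT, with a log2 ratio of -1.03 in MP over P. Terc, the telomerase RNA and itself of the H/ACA family, stood at 11.4 in MP, 12.8 in M, 16.8 in P, 15.8 in EV and 12.4 in WT, with no ratio of 2-fold. Rnu11, a spliceosomal RNA of the minor class, had a log2 ratio of 0.39 in MP over M and 0.32 in MP over EV, but -0.21 in MP over P. Rnu12, of the same class, had -0.41 in MP over M, -0.52 in MP over P and -0.31 in MP over EV. Vaultrc5, a vault RNA, stood at 2.07 in MP, 2.66 in M, 2.02 in P, 2.61 in EV and 1.85 in WT. No member of this list was 2-fold apart in M over EV, P over EV or EV over WT.

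Of 23 listed noncoding host genes, 8 were found under the listed symbol at a locus of their own. Meg3, an imprinted noncoding RNA whose locus carries many C/D snoRNAs, stood at 1.32 in MP, 4.03 in M, 2.21 in P, 2.73 in EV and 3.31 in WT, with a log2 ratio of -1.11 in MP over M. Snhg5 and Snhg8 were level, at 13.3 to 14.8 and at 7.14 to 9.75.

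MicroRNA genes, 396 in number, were above 0 less often than the snoRNA and scaRNA genes, in 14.9% of cases in MP, 23.2% in M, 25% in P, 31.6% in EV and 21% in WT. Of those that entered, 13.9% were 2-fold apart in MP over M, 3.23% in MP over P, 5.41% in MP over EV, 10.6% in M over EV, 13.6% in P over EV and 8% in EV over WT.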
